A study of Mus musculus with 3 samples.

Results

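Among cells sorted for a Pthrp-mCherry reporter from mouse molars, 2207 of 24328 kept cells (9.07%) carried the keratins of basal epithelium and at most 2 UMIs of the mucin-type genes of glands. In the members the summed level of any of those genes was no more than 0.430 CPM, reached by Muc5b at P25. UMIs (unique molecular identifiers, each standing for a captured transcript) were counted per gene and cell, and CPM is the UMIs of a gene per 1000000 summed UMIs of a class of cells in a library. A kept cell had at least 500 genes detected and at most 20% mitochondrial UMIs. A keratin epithelial cell also held at least 5 UMIs of Krt5 and Krt14 together, at least 1 of Epcam and Trp63 together, 0 of Ptprc and at most 2 of Muc5b, Tff2, Lipf and Bpifb2 together. Of 27089 deposited cells, 2399 passed the gene criteria and 192 of those failed the quality criteria. The mucin criterion removed no cell, and a comparison with mucin-bearing epithelial cells could not be run because the libraries held 2 of them, both at P25.

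The libraries came from mice labelled as a Pthrp-mCherry knock-in, in which the red fluorescent protein mCherry is expressed from the locus of parathyroid hormone-related protein. Mandibular first and second molars with their surrounding tissue were freed of gingiva, dissociated and pooled over mandibles of both sexes, from mouse lines mostly on a C57BL/6 background, and mCherry+ cells were sorted by flow cytometry and profiled with 10x Genomics 3' chemistry. There was 1 library at each of postnatal day 15 (P15), postnatal day 25 (P25) and 8 weeks, so no difference between ages could be tested and age cannot be told apart from library. The sorted cells were labelled as cementoblasts and their precursors, a label that does not cover keratin epithelial cells. The paper, which joined these libraries with an earlier dataset, also reported epithelial cells as a minor part of the sorted cells. Its markers for those clusters included Krt5, Krt14, Trp63, Epcam, Krt17 and Odam. Whether the members are the same cells as those clusters was not tested.

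Krt5 and Krt14 pair into the intermediate filaments of basal epithelial cells, and Trp63 is the transcription factor that maintains the basal state. Around a tooth root, epithelium of this kind persists as remnants of the epithelial root sheath in the periodontal ligament, and a related junctional epithelium, known for secreting Odam, attaches the gum to the tooth. Dental epithelium and mesenchyme signal to each other through Wnt, BMP, FGF, Hedgehog, EGF-family and Notch ligands during tooth and root formation.

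The keratin epithelial cells made up 1319 of 11412 kept cells at P15 (11.6%, 95% Clopper-Pearson interval 10.98 to 12.2), 799 of 8325 at P25 (9.60%, 8.97 to 10.3) and 89 of 4591 at 8 weeks (1.94%, 1.56 to 2.38). The intervals here and below cover counting error only. The share at 8 weeks lay below both others, in shares set by a fluorescence sort. With counts thinned to 3000 UMIs per cell the gate gave 6.76%, 6.31% and 1.502%, in the same order. Members were deeper than the other cells at P25 and at 8 weeks, with median UMIs per cell of 16510, 34119 and 19561 at P15, P25 and 8 weeks against 15206, 15927 and 9302 in all other kept cells. The members summed to 24459971, 28991820 and 1782975 UMIs, so values at 8 weeks rest on the fewest cells and UMIs. No cell barcode was shared between libraries among the members.

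The defining keratins were abundant in every library, as the gate requires, and these values are a description of the choice. Since a 3' assay counts transcript ends, levels in CPM are comparable between genes without a length correction. Krt14 (GRCm38 chr11:100203162-100207548, minus strand) stood at 10952, 17074 and 16510 CPM at P15, P25 and 8 weeks, against 209, 191 and 28.4 CPM in all other kept cells. Krt5 (chr15:101707070-101712898, minus strand) stood at 3723, 5846 and 6529 CPM against 64.0, 62.9 and 12.4 CPM. Trp63 was at 241, 191 and 227 CPM and the adhesion molecule Epcam at 179, 218 and 253 CPM, each at 3.17 CPM or lower in the rest. Among markers outside the gate, the stress- and appendage-associated keratin Krt17 was at 896, 2740 and 1489 CPM against 12.6, 26.6 and 2.62 CPM, high in every member library. Odam (chr5:87885029-87894174, plus strand) was lower at each later age, at 3705, 606 and 147 CPM, and stood at 56.6, 5.77 and 0.368 CPM in the rest.

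**Figure D1:**
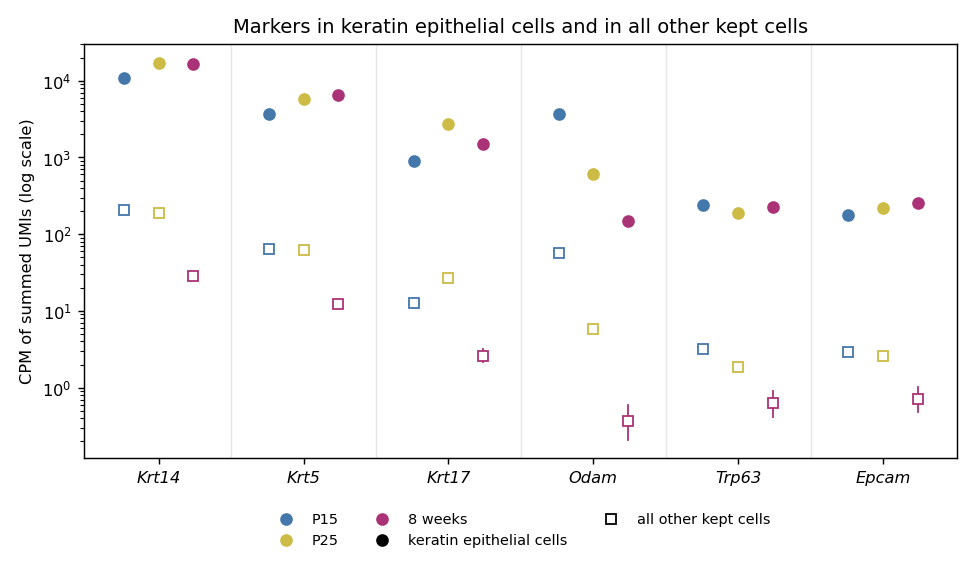
Level of each of the 6 markers (CPM, log axis) in keratin epithelial cells (filled circles) and all other kept cells (open squares), with 1 point for each library at P15, P25 and 8 weeks and 95% Poisson intervals as lines. Krt5, Krt14, Trp63 and Epcam differ little across the 3 member libraries, while Odam runs from 3705 CPM at P15 to 147 CPM at 8 weeks.

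Keratin UMIs were found in other cells as well, and the part of free RNA in them was not tested. With each cell thinned to 3000 UMIs, a Krt14 UMI was found in 95.4%, 97.5% and 100% of members at P15, P25 and 8 weeks, against 11.1%, 9.76% and 4.404% of mesenchymal cells. Mesenchymal cells here are kept cells with at least 10 UMIs of Col1a1, Col1a2 and Col3a1 together, at most 1 keratin UMI and none of Epcam, Ptprc and Pecam1, so the choice of both classes limited their keratin. Among immune cells, kept cells with at least 1 UMI of Ptprc, at least 5 of Tyrobp, Fcer1g and Laptm5 together and at most 20 of the 3 collagens, with no limit on keratin, a Krt14 UMI was found in 43.3% and 25.4% of thinned cells at P15 and P25, and in 78.6% and 69.7% on unthinned counts. At 8 weeks it was found in 0 of 20 thinned immune cells and in 5 of 21 on unthinned counts, so values of immune cells there rest on few cells. At P15, 77 members with 5 or 6 keratin UMIs had a median of 89.2 collagen UMIs and 1.13 Perp and Dsp UMIs per 10000, and 113 cells just outside, with 3 or 4 keratin UMIs, had medians of 143 and 0. The 755 P15 members with both Epcam and Trp63 had medians of 8.38 and 13.7. At P25, 18 members just inside the keratin threshold had medians of 410 and 0.0784, and 38 cells just outside it had medians of 334 and 0. At 8 weeks 0 members lay just inside and 3 cells just outside.

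Collagen was the main foreign signal in the members. In P15, P25 and 8-week libraries, 460, 177 and 10 members (34.9%, 22.2% and 11.2%) held more than 20 collagen UMIs per 10000. The 17 mesenchyme markers summed to 10390, 11840 and 2439 CPM in members, led by Sparc at 2515 CPM at P15 and Col1a1 at 3430 CPM at P25 and 708 CPM at 8 weeks. In mesenchymal cells the same list summed to 56466, 89688 and 72870 CPM. Without the high-collagen members it summed to 2134, 1029 and 1118 CPM. The part of cell doublets and of free RNA in these values was not tested. Immune markers summed to 277, 144 and 14.6 CPM, led by S100a9 at 130 and 82.8 CPM at P15 and P25. At 8 weeks Lyz2 and S100a9 were level at 3.94 CPM. Cd3e was at 0 in every member library, as was Ptprc, which the gate set to 0. Erythroid markers summed to 380, 503 and 10.7 CPM with Hbb-bs the most abundant. Endothelial markers (15.5, 5.34 and 7.31 CPM, led by Egfl7), Schwann cell markers (57.2, 31.6 and 17.4 CPM, led by Pmp22), mucosal gland markers (18.4, 9.39 and 8.43 CPM, led by Agr2) and melanocyte and Merkel cell markers (16.1, 2.90 and 0 CPM, led by Dct) were low.

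The reporter itself was present. The mCherry transcript stood at 485, 305 and 405 CPM in members at P15, P25 and 8 weeks, at 353, 416 and 555 CPM in mesenchymal cells and at 35.2, 2.38 and 4.15 CPM in Ptprc-gated immune cells. The members were above mesenchymal cells at P15 and below them at the later ages, and above immune cells in each library. Pthlh, which encodes parathyroid hormone-related protein, stood at 165, 88.6 and 80.4 CPM in members and 175, 235 and 241 CPM in mesenchymal cells. Its receptor gene Pth1r was at 10.9, 5.67 and 1.13 CPM in members, below the 67.0, 48.3 and 49.6 CPM of mesenchymal cells in every library.

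Against all other kept cells, summed per library, 1430 of 13980 genes were higher in members (10.2%) and 2329 were lower (16.7%). A gene was called when the edgeR quasi-likelihood test gave an adjusted p under 0.05 and the log2 fold change was above 1 in size. The cells were picked on genes of this same contrast, so the calls describe how steady a difference was over 3 libraries of different ages and are no test of the class. Without the P25 library edgeR called 0 genes in either direction, with 3719 genes at an unadjusted p under 0.05, and without the 8-week library 624 and 900. All 170 called genes among the 202 named by rule lost their call without P25, but all 170 kept their direction and stayed beyond 1 on the log2 scale, moving by a median of 0.16 and at most 1.94 (Krt15, for example, went from 8.06 to 8.53). Outside the gate genes, the largest called differences with 50 CPM or more, after TMM scaling, in each member library were those of Krt15, Tmprss11d, Krtdap, Krt16, S100a14, Gpx2, Tmprss11a, Dmkn, Serpinb5 and Rab25, with log2 fold changes of 7.08 to 8.06. Krt13, with a log2 fold change of 7.35, was at 49.1 CPM on that scale at P15 and so was not among them. Krt15, a keratin of basal and stem-like epithelial cells, was at 180, 232 and 959 CPM against 1.68, 1.89 and 1.75 CPM, a log2 fold change of 8.06 ± 0.83 (SE, 3 libraries per class). Tmprss11d, a transmembrane serine protease of surface epithelia, was at 64.0, 221 and 236 CPM against 0.831, 1.56 and 0.322 CPM. In both genes every member library lay above every library of the rest.

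Among genes at 50 CPM or more, after TMM scaling, in each library of the rest, the largest called differences downward were those of Cd74, Lyz2, Ibsp, Spp1 and Bglap, genes of immune cells and bone matrix. Ibsp, which encodes bone sialoprotein, was at 418, 505 and 69.7 CPM in members against 3260, 5338 and 7794 CPM in the rest. Spp1 and Bglap, which encode osteopontin and osteocalcin, had log2 fold changes of -3.90 and -3.80. Cd74 and Lyz2, genes of antigen-presenting and myeloid cells, had log2 fold changes of -4.71 and -4.44, in a contrast from which the gate itself removed Ptprc-bearing cells. Against mesenchymal cells alone their log2 fold changes were -0.33 and -0.31, and neither was called.

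Genes that fasten epithelial cells to a basement membrane were mostly higher. Of 16 tested genes for basal adhesion, 11 were higher and 0 lower (68.8% and 0%, against 10.2% and 16.7% of all tested genes, the shares beside which the list counts that follow are to be read), with a median log2 fold change of 3.65 against -0.07 over all genes tested. Col17a1, the transmembrane collagen of hemidesmosomes, was at 370, 318 and 385 CPM in members and 7.18, 3.85 and 1.38 CPM in the rest, a log2 fold change of 6.53 ± 0.65 (SE). The integrin pair of the hemidesmosome followed, with Itga6 at 271, 199 and 168 CPM and Itgb4 at 130, 106 and 96.2 CPM. Dst, the plakin that ties keratin filaments to hemidesmosomes, was at 375, 255 and 409 CPM against 81.5, 97.5 and 107 CPM. All 4 genes were above the rest in each of the 3 libraries.

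Desmosome and junction genes showed the same order, with 17 of 19 tested genes higher, 0 lower and a median log2 fold change of 5.90. Dsp, the desmoplakin that anchors keratin to desmosomes, was at 663, 877 and 1239 CPM against 12.6, 11.9 and 6.69 CPM. Perp, a desmosome protein and p63 target, was at 768, 1125 and 1146 CPM against 40.4, 20.1 and 9.45 CPM. Neither gene overlapped between classes, and their log2 fold changes were 6.57 ± 0.42 and 5.56 ± 0.61 (SE).

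Several keratin and stratification genes were more abundant at P25 and 8 weeks than at P15. Among 11 other tested keratins 7 were higher, and Krt18, a keratin of simple epithelia, was lower. All 19 tested of 23 measured genes of stratifying and cornifying epithelium were higher, with a median log2 fold change of 6.26. In this, the junction and the transcription factor lists, genes near 0 in the rest could pass the low-count filter through member levels alone. Such genes add to the counts of higher genes. Fabp5, the epidermal fatty acid-binding protein, was at 2919, 6146 and 6407 CPM in members against 173, 134 and 56.3 CPM. Sfn, the epithelial 14-3-3 protein, was at 982, 2348 and 2274 CPM, and Lgals7, a galectin of stratified epithelium, at 1084, 4475 and 5306 CPM. Krt13, a keratin of the upper layers of mucosa, rested on few cells, and its 50.2, 1783 and 651 CPM followed no age order. When the gate was applied to thinned counts, 738, 511 and 63 cells passed it at P15, P25 and 8 weeks. Here and below, members of at least 3000 UMIs that missed it were counted with the other cells. The part of this mixing in a lost call was not tested. With that gate Krt13, Krt16, Krt6b and Krtdap were no longer called (adjusted p 0.0618 to 0.181 in edgeR). Their log2 fold changes were then 3.24 to 3.81, against 7.35, 7.26, 6.72 and 7.37 with the gate on all counts.

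Transcription factors of epithelium and of dental epithelium were higher for 17 of 20 tested genes, with 0 lower and a median log2 fold change of 5.50. Ehf, an ETS factor of epithelia, was at 118, 122 and 180 CPM against 2.42, 2.18 and 1.43 CPM, a log2 fold change of 6.20 ± 0.31 (SE). Irx1, an Iroquois factor, was at 49.2, 55.2 and 64.7 CPM against 0.956, 0.590 and 0.368 CPM. These levels varied little among the 3 member libraries and did not overlap with the rest. Runx1 differed less, at 318, 130 and 131 CPM against 55.4, 48.4 and 45.0 CPM.

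Of 9 tested genes for enamel and attachment proteins, Wdr72, needed for enamel maturation, was called higher and none lower, a share of 11.1% that is close to the 10.2% of all tested genes. Odam itself was not called by the main edgeR fit, with a log2 fold change of 6.26 ± 2.07 (SE) and a level that changed with age. With the library as a block, edgeR called Odam (log2 fold change 7.09). It did so as well without the P15 library (7.03), without high-collagen members (6.20) and against mesenchymal cells alone (7.90). DESeq2 also called Odam (6.19). Of 19 tested cell cycle genes 6 were higher (Mki67, Ccnb1, Bub1, Cenpf, Mcm5 and Stmn1) and 0 lower, and Mki67, Ccnb1, Cenpf, Mcm5 and Stmn1 lost their calls with the library as a block. Mki67, which marks proliferating cells, was at 73.4, 220 and 314 CPM in members against 51.7, 31.7 and 16.8 CPM. Of 20 genes linked to dissociation stress 7 were lower and 1, the small heat shock gene Hspb1, was higher at 664, 989 and 655 CPM against 28.4, 33.2 and 30.9 CPM. With the library as a block the lower calls of Egr1, Junb, Jund and Nfkbia were lost (adjusted p 0.0772 to 0.0906 in edgeR). All 17 mesenchyme markers were lower, as were 6 of 9 immune, 2 of 4 Schwann cell and 1 of 2 mucosal gland markers (Aqp5), and 0 of 6 endothelial and 0 of 5 erythroid markers were called. Of the Schwann cell markers Pmp22 lost its call with the block (adjusted p 0.0642 in edgeR). Of 2 melanocyte and Merkel cell markers Dct was higher, at 15.7, 2.55 and 0 CPM, with no UMI at 8 weeks, and lost its call when the gate was applied to thinned counts (log2 fold change 3.38, adjusted p 0.111 in edgeR). None of 7 tested ameloblast lineage genes was called, but with the library as a block Amtn was (log2 fold change 5.77, adjusted p 0.00826 in edgeR).

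**Figure D2:**
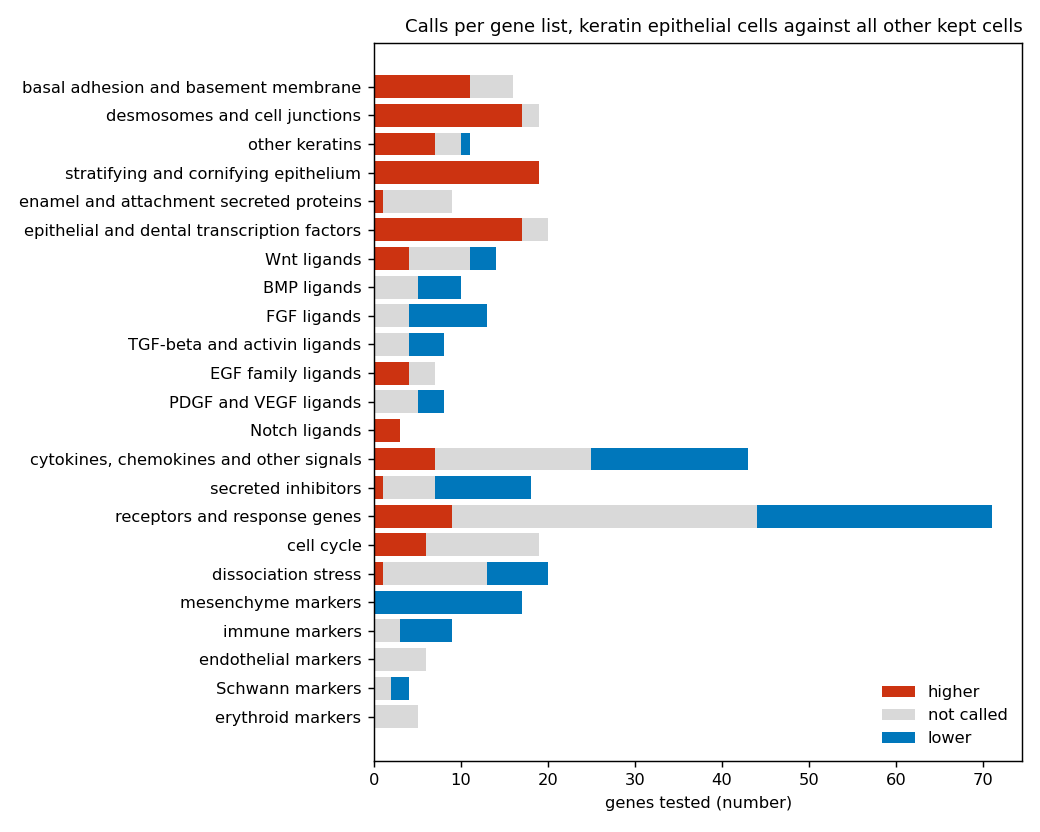
Number of tested genes of each list called higher (red), lower (blue) or not called (grey) in keratin epithelial cells against all other kept cells. Junction, stratification and epithelial transcription factor lists are nearly all higher, while genes of the mesenchyme, BMP and FGF lists are lower or not called and 11 of 18 secreted inhibitors are lower.

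Signals that could reach mesenchyme included ligands with higher transcript levels in members and ligands with lower levels, to be read beside the 10.2% of all tested genes called higher and the 16.7% called lower. Here the values of mesenchymal cells are given beside those of members. No ligand protein was measured, and no response of mesenchymal cells to a ligand was tested. Of 19 listed Wnt ligands 14 were tested. Of these 4 were higher (Wnt4, Wnt3, Wnt3a and Wnt7a) and 3 lower (Wnt5a, Wnt5b and Wnt9a), or 28.6% and 21.4%, the latter near the share of all genes. In all other kept cells Wnt3, Wnt3a and Wnt7a were at no more than 0.131, 0.206 and 0.412 CPM in any library. Their levels in members carried them past the filter on low counts, so the 28.6% is no result about the family. Genes near 0 in 1 class add to the counts of other ligand families in the same way. Wnt4 (chr4:137277489-137299726, plus strand), a secreted Wnt of many epithelia, was at 447, 331 and 251 CPM in members at P15, P25 and 8 weeks and at 13.9, 7.60 and 8.08 CPM in mesenchymal cells. The lowest member library was far above the highest mesenchymal library, and the log2 fold change against all other kept cells was 4.89 ± 0.38 (SE). With counts thinned to 3000 UMIs, a Wnt4 UMI was found in 58.5%, 57.8% and 48.2% of members and in 3.44%, 2.50% and 2.01% of mesenchymal cells. Wnt4 was spread widely, since 704, 467 and 56 members (53.4%, 58.4% and 62.9%) held 90% of its UMIs. Wnt10a, mutated in tooth agenesis, was at 102, 136 and 121 CPM in members and 73.4, 82.1 and 63.5 CPM in mesenchymal cells, and was not called because its log2 fold change was 0.88. Wnt7a and Wnt3 were low, at no more than 16.5 and 5.09 CPM in any member library. Wnt5a was at 125, 79.8 and 47.2 CPM in members and 205, 296 and 280 CPM in mesenchymal cells, and lost its call with the library as a block (adjusted p 0.0582 in edgeR), as did Wnt9a (0.0931). Wnt3 and Wnt7a lost theirs when the gate was applied to thinned counts (adjusted p 0.0517 and 0.154).

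The EGF family had 4 of 7 tested ligands higher (Nrg1, Tgfa, Areg and Btc) and 0 lower. Hbegf, which was not called, stood at 57.3, 32.8 and 21.9 CPM in members and 13.7, 21.7 and 25.5 CPM in mesenchymal cells, above them at P15 and P25 and below at 8 weeks. The called ligands were at lower levels than Hbegf in members at P15 and P25. Nrg1, a ligand of ERBB receptors, was at 11.9, 12.8 and 23.6 CPM in members and 0.612, 0.0876 and 0.0992 CPM in mesenchymal cells. Tgfa was at 7.34, 9.47 and 9.56 CPM, and Btc reached no more than 4.55 CPM. Areg, at 5.41, 9.001 and 6.19 CPM, lost its call with the library as a block (adjusted p 0.0528). Egfr, the receptor of Tgfa, Areg and Btc, was at 64.7, 39.1 and 63.0 CPM in members and at 21.4, 17.3 and 28.1 CPM in mesenchymal cells, above in members in each library.

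All 3 tested Notch ligands, which act between touching cells, were higher. Jag1 was at 61.2, 55.2 and 59.0 CPM in members and at 15.3, 27.7 and 29.6 CPM in mesenchymal cells, with a log2 fold change of 1.37 ± 0.31 (SE). Jag2 was at 19.9, 47.7 and 26.4 CPM against 0.350, 0.473 and 0.0992 CPM. Dll1 had a log2 fold change of 2.57 and reached no more than 13.9 CPM. The receptor gene Notch1 was at 70.0, 68.8 and 131 CPM in members and 12.4, 13.8 and 13.7 CPM in mesenchymal cells. Notch2 ran the other way with age, at 51.7, 20.8 and 8.997 CPM in members and 32.3, 47.5 and 58.0 CPM in mesenchymal cells, and was not called.

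Of 43 tested cytokines, chemokines and other signals 7 were higher (Cxcl14, Mif, Cxcl16, Ccl20, Il18, Ntf5 and Sema3f) and 18 lower. Cxcl16 and, among the lower genes, Sema3e lost their calls with the library as a block (adjusted p 0.0678 and 0.0552 in edgeR), and Il18 lost its call when the gate was applied to thinned counts (0.0593). Ccl2, a monocyte chemokine, was called lower against all other kept cells (log2 fold change -1.89) but not against mesenchymal cells alone (-0.33, adjusted p 0.599 in edgeR). It was at 20.7, 11.5 and 6.75 CPM in members, at 14.5, 10.7 and 28.7 CPM in mesenchymal cells and at 682, 930 and 5742 CPM in immune cells, the last resting on 21 cells. Cxcl14 (chr13:56288643-56296551, minus strand), a chemokine of epithelia, was at 536, 125 and 68.6 CPM in members and at 33.9, 17.6 and 14.9 CPM in mesenchymal cells. Mif, macrophage migration inhibitory factor, was even across ages at 907, 1010 and 1007 CPM against 305, 202 and 170 CPM. Fst (chr13:114452290-114458951, minus strand), the secreted binder of activins, was the only called-higher gene of 18 tested secreted inhibitors, at 277, 49.9 and 34.3 CPM against 22.4, 10.4 and 14.1 CPM. Cxcl14 and Fst were highest at P15 and above mesenchymal cells in every library, with log2 fold changes of 3.47 ± 0.80 and 3.01 ± 0.81 (SE). Neither was called when the gate was applied to thinned counts, which put some members among the other cells (adjusted p 0.0683 and 0.0721). Sostdc1, an inhibitor of BMP and Wnt signals, was at 225, 84.1 and 91.7 CPM against 88.2, 29.6 and 13.6 CPM. The main edgeR fit did not call it (log2 fold change 1.73). It was called by edgeR with the library as a block (1.96) and without the P15 library (2.13), and by DESeq2 (1.68). Inhba, which encodes an activin subunit, was at 42.4, 62.9 and 58.0 CPM in mesenchymal cells and 12.2, 9.50 and 0.562 CPM in members.

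The other ligand families held no called-higher gene. Of tested genes in the BMP list 5 of 10 were lower, in the FGF list 9 of 13, in the TGF-beta and activin list 4 of 8 and in the PDGF and VEGF list 3 of 8. The lists follow gene names and are not all of secreted ligands. The lower FGF genes included Fgf11, Fgf12 and Fgf13, which stay inside cells, and the BMP list held Bmp1, a protease that was not called. Of 3 listed Hedgehog ligands 1, Ihh, was tested and was lower. Ihh was at 0.123, 0.179 and 0 CPM in members and at 0.806, 1.19 and 0.460 CPM in all other kept cells. Its level in the other cells carried it past the filter on low counts, so its call is no result about the family. Fgf9 and Fgf18 lost their calls with the library as a block (adjusted p 0.0556 and 0.0893 in edgeR), and Ihh without the filter on low counts (0.0576). Shh had 21, 13 and 0 UMIs in members at P15, P25 and 8 weeks. Bmp2 was at 71.1, 43.9 and 21.9 CPM in members and 109, 161 and 211 CPM in mesenchymal cells, and lost its call with the library as a block (adjusted p 0.0836). Of the secreted inhibitors 11 were lower. Wif1, which binds Wnt proteins, was at 2939, 4273 and 5451 CPM in mesenchymal cells and 490, 454 and 93.4 CPM in members. Without the high-collagen members Wif1 stood at 63.8, 31.9 and 46.4 CPM in members.

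**Figure D3:**
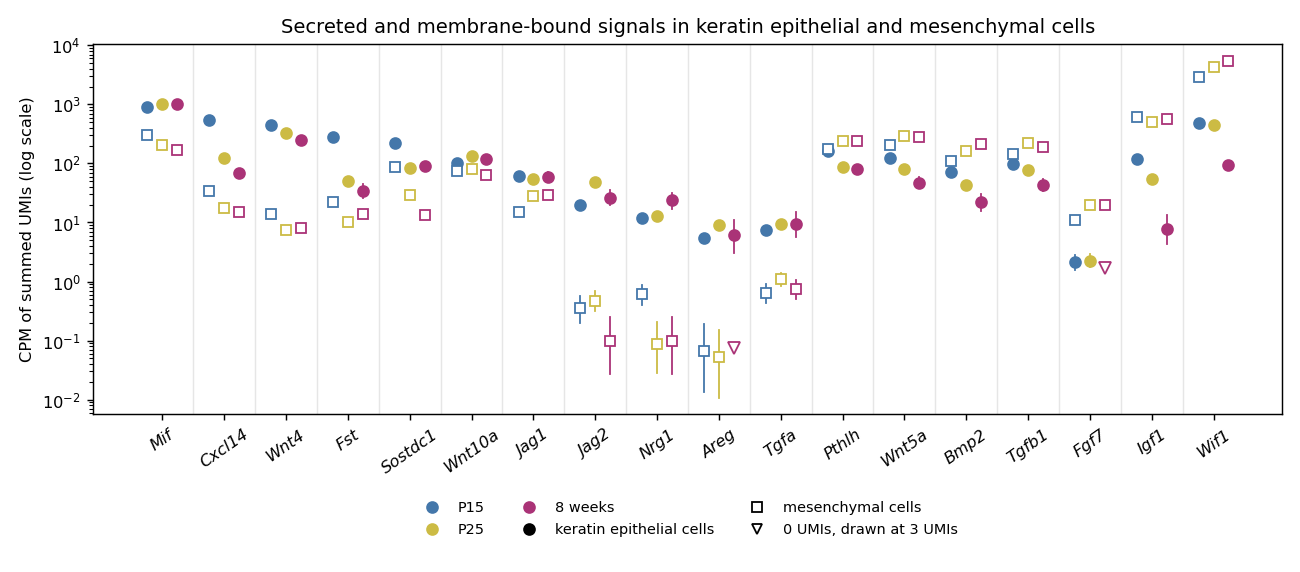
Level (CPM, log axis) of ligand and secreted inhibitor genes in keratin epithelial cells (filled circles) and mesenchymal cells (open squares), with 1 point for each library, 95% Poisson intervals as lines and open triangles at the level of 3 UMIs for libraries with no UMI. Wnt4, Cxcl14, Fst, Mif, Jag1 and Jag2 lie higher in members in all 3 libraries, and Wif1 and Bmp2 lie lower.

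Transcripts of Wnt receptors were present in the mesenchymal cells. Of 71 tested receptor and response genes 27 were lower in members than in all other kept cells (38%, against 16.7% of all tested genes) and 9 higher (12.7%, close to the 10.2% of all tested genes). The genes Acvr1, Tgfbr2 and Spry2 lost their lower calls with the library as a block (adjusted p 0.0514 to 0.0635 in edgeR). Fzd1, a Frizzled receptor, was at 138, 175 and 223 CPM in mesenchymal cells and 31.2, 30.4 and 24.2 CPM in members. Fzd2 was at 113, 105 and 128 CPM against 44.6, 26.5 and 11.8 CPM. Ryk, a Wnt co-receptor, was close in both classes, at 116, 105 and 117 CPM in mesenchymal cells and 141, 104 and 109 CPM in members. The Notch target Hes1 was at 87.4, 100.1 and 133 CPM in mesenchymal cells and 260, 156 and 180 CPM in members, and its log2 fold change of 1.00 was not called on its size. It was called without the high-collagen members (1.15). Another Notch target, Hey1, was at 20.1, 21.2 and 25.6 CPM in mesenchymal cells and 5.45, 2.22 and 1.13 CPM in members.

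Members at P15 and at 8 weeks were compared by their summed levels. Of 3178 genes at 50 CPM or more in the higher of the P15 and 8-week libraries, 56 were at least 4-fold higher at 8 weeks (1.76%) and 145 at least 4-fold higher at P15 (4.56%). Without the high-collagen members these counts were 52 and 66. With a library for each age there is no test, and the intervals cover counting error only. All 4 enamel and attachment genes past the level minimum (Odam, Ambn, Amelx and Amtn) were higher at P15. Ambn, which encodes ameloblastin, was at 660 CPM (95% Poisson interval 650 to 670), 26.0 CPM and 2.25 CPM (0.613 to 5.76) in members, and at 140, 91.3 and 80.0 CPM in mesenchymal cells. Amtn, which encodes amelotin, was at 213, 1.47 and 0 CPM, with 20 of its 41 P25 UMIs in 1 cell (0.753 CPM without it). Gm17660 (chr5:104070064-104077608, minus strand), a predicted gene outside that list, was at 1297, 119 and 0.562 CPM, and a single P25 cell held 1307 of its 3331 UMIs there (72.6 CPM without it). Amelx (chrX:169176114-169187200, minus strand), which encodes amelogenin, was at 677, 0.0717 and 0 CPM. A single P15 cell held 11974 of the 16511 Amelx UMIs, and without it the P15 level was 186 CPM.

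Other genes named for their P15 level were Cck, which encodes the peptide cholecystokinin, at 158, 10.5 and 2.81 CPM, and the chromatin organiser Satb1 at 141, 17.1 and 1.69 CPM. By the rule that named them, each of these genes had its P25 value between those of the other ages. Of 20 dissociation stress genes 9 were at least 4-fold higher at P15, and of 13 mesenchyme markers 7. The immediate-early gene Egr1 stood at 679, 185 and 181 CPM in members of low collagen and at 1348, 1460 and 2605 CPM in mesenchymal cells, so it was highest at P15 in members and highest at 8 weeks in mesenchymal cells. S100a8, S100a9, Hba-a1 and Hbb-bs, genes of neutrophils and red cells, were higher at P15 as well, with S100a9 at 130, 82.8 and 3.94 CPM in members and 131, 3.45 and 4.83 CPM in mesenchymal cells. The part of free RNA in this was not tested.

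The genes named for a high level at 8 weeks were Ces1h, Mt3, Sptssb, Krt23, Aldh3a1 and Adh7. Ces1h, a carboxylesterase, was at 0.246 CPM (0.0903 to 0.536), 86.6 CPM and 190 CPM (170 to 211), a 772-fold ratio of 8 weeks to P15 resting on 6 UMIs at P15. Mt3, a metallothionein, was at 15.3, 855 and 1817 CPM, the first being 9.97 CPM without the P15 cell that held most. Aldh3a1 and Adh7, an aldehyde and an alcohol dehydrogenase of surface epithelia, were at 28.5, 346 and 553 CPM and at 11.7, 169 and 218 CPM. Sptssb and Krt23 were at 2.67, 67.4 and 128 CPM and at 4.02, 58.0 and 84.9 CPM. Of 11 stratifying genes 6 were at least 4-fold higher at 8 weeks (Lgals7, Krt4, Krt10, Krt13, Krtdap and Calm4). Krtdap, a keratinocyte differentiation gene, was at 107, 1999 and 1632 CPM, with the step between P15 and P25. Among 12 cell cycle genes Mki67 and Top2a were past 4-fold at 8 weeks.

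**Figure D4:**
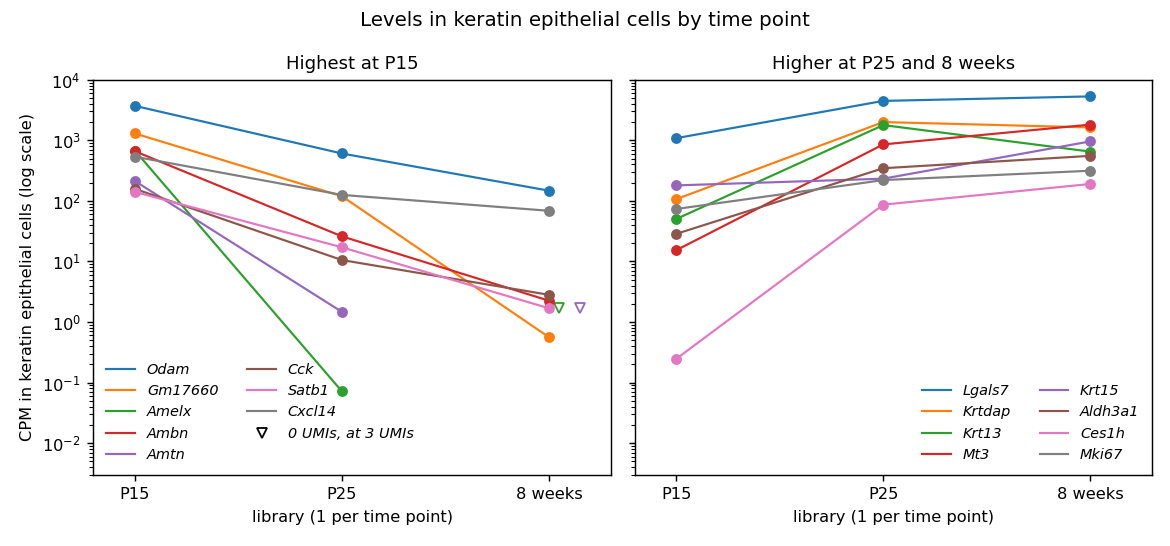
Level (CPM, log axis) in keratin epithelial cells at P15, P25 and 8 weeks of genes highest at P15 (left) and genes higher at P25 and 8 weeks (right), 1 library per age, with open triangles at the level of 3 UMIs for libraries with no UMI. Ambn, Amelx and Amtn are far lower at P25 than at P15, and Ces1h, Mt3 and Aldh3a1 are higher at P25 than at P15 and higher again at 8 weeks.

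Members were not uniform. On counts thinned to 3000 UMIs, which left 1267, 771 and 83 members, subsets that may overlap were taken by markers. At least 5 UMIs of Krt1, Krt10, Krt4 and Krt13 together were found in 0.789% (0.379 to 1.45), 14.4% (12.0 to 17.1) and 14.5% (7.70 to 23.9) of members at P15, P25 and 8 weeks, and in no mesenchymal cell. At least 2 UMIs of Mki67 and Top2a were found in 4.97% (3.84 to 6.32), 27.0% (23.9 to 30.3) and 24.1% (15.4 to 34.7), against 2.91%, 2.01% and 0.938% of mesenchymal cells. The stratifying and cycling shares were thus low at P15 and alike at P25 and 8 weeks. On unthinned counts they were 4.78%, 31.5% and 31.5% for stratifying and 16.4%, 49.6% and 47.2% for cycling cells.

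An Odam UMI was found in 20.7%, 21.7% and 10.8% of thinned members, against 5.13%, 0.412% and 0.0521% of mesenchymal cells and 10.6% of P15 immune cells. At least 2 UMIs of Ambn, Amelx and Enam were found in 16.8%, 1.95% and 0% of members, the last being 0 of 83 cells (exact upper limit 4.35%), against 8.83%, 6.87% and 6.96% of mesenchymal cells. In immune cells these shares were 0.336%, 0% and 0%, the last resting on 20 cells. At P25 and 8 weeks the enamel share in members was below that in mesenchymal cells. On unthinned counts the enamel shares in members were 27.1%, 6.13% and 0%, against 26.0%, 19.7% and 14.7% of mesenchymal cells. Odam and enamel subsets shared 123 P15 cells, and the stratifying subset shared 0, 4 and 2 cells with the Odam subset.

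**Figure D5:**
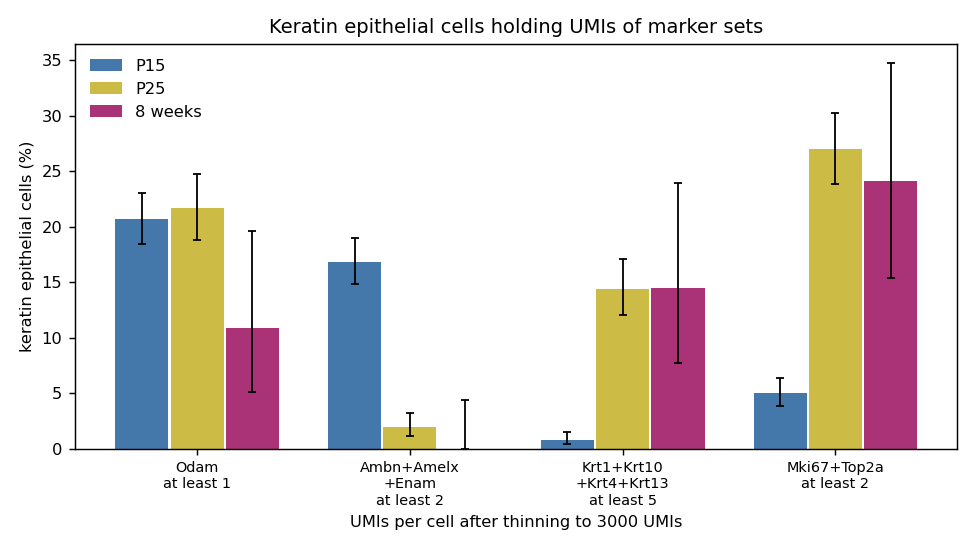
Share (percent, counts thinned to 3000 UMIs) of keratin epithelial cells in each of 4 marker subsets, by library, with bars for the share and lines for 95% Clopper-Pearson intervals. Stratifying and cycling shares are higher at P25 and 8 weeks than at P15, and the enamel share is 16.8% at P15, 1.95% at P25 and 0% at 8 weeks.

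Ligand levels differed among these subsets. At P15, cells of the enamel subset held 1679 CPM of Cxcl14 and 777 CPM of Fst, where all P15 members together held 536 and 277 CPM. Without high-collagen members 98 of the 213 cells of this subset remained, and their ligand levels were not taken apart. At P25, the stratifying subset held Col17a1 at 27.7 CPM, Jag2 at 3.095 CPM and Fst at 2.52 CPM, beside Krt13 at 9197 CPM and Fabp5 at 22222 CPM. Wnt4 was at 222 CPM there, where all P25 members together held 331 CPM. These are sums over cells of a library, given as a description.

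Odam was concentrated in few cells. At P15, 103 members with 20 or more Odam UMIs held 98.6% of its 90338 UMIs, and 59 cells held 90%. At P25, 114 such members held 95.5% of 16897 UMIs, and at 8 weeks 5 such members were found. Wnt4, by contrast, had no more than 74 UMIs in any P15 cell.

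Members with an Odam UMI (561 at P15 and 272 at P25) were compared with those without, leaving out the 14 such cells at 8 weeks, which were too few for a sum. On the same unthinned counts an Odam UMI was held by 42.5% and 34.0% of members, by 21.9% and 2.59% of mesenchymal cells and by 22.9% and 4.10% of immune cells. The part of free RNA in the split was not tested. edgeR called 0 of 12736 genes higher and 0 lower (0% and 0%), with 81 genes at an unadjusted p under 0.05. The 2 sums of a library come from the same animals, and with the library as a block edgeR called 7 higher (0.055%) and 1 lower (0.00785%). DESeq2 without the block called 14 higher (0.11%) and 1 lower (0.00785%). The block called Gm17660, Amtn, Slc6a14, Ggt1, Fxyd4, Saa3 and Klk12 higher and Mt3 lower. Ggt1, a gamma-glutamyl transferase, was at 54.5 CPM at P15 and 59.6 CPM at P25 in Odam-positive members and 1.55 and 0.98 CPM in Odam-negative members, even across the ages (blocked log2 fold change 5.52 ± 0.23 SE, adjusted p 0.00546 in edgeR). Gm17660 was at 2906 and 348 CPM against 9.97 and 1.68 CPM, with 1307 of the 3331 UMIs of all P25 members in 1 cell. Slc6a14, an amino acid transporter, was at 8.86 and 36.5 CPM against 0.30 and 0.60 CPM. Amtn was at 469 and 4.22 CPM against 7.24 and 0.05 CPM, with 20 of the 41 UMIs of all P25 members in 1 cell. Mt3 was at 4.61 and 174 CPM against 23.9 and 1206 CPM. Krt15 was at 87.8 and 74.6 CPM in Odam-positive members and 254 and 314 CPM in Odam-negative members, lower in both libraries, and was called by DESeq2 but not by edgeR (adjusted p 1.00 without the block). Krt17 was near level at P15, at 959 and 846 CPM, and apart at P25, at 6366 and 874 CPM, and was not called (edgeR log2 fold change 2.16 ± 1.02 SE).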

How the data were processed

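Per the labels, PTHrP-mCherry+ cells from molars were profiled with 10x Genomics 3' v3.1 chemistry, 1 library per age. The deposited values were UMI counts per gene and cell, which the authors had made with Cell Ranger. Per the file headers the version was 6.0.1 for P25 and 6.1.2 for the others, and the submitters' processing notes name version 6.1.2 and the build mm10. The libraries were joined on 21446 gene identifiers, since the references differed.

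Counts were summed per library and class. The members, gene lists, named genes and tests were chosen with earlier results of these data known. edgeR 4.0.16 in R 4.3.3 (TMM, filterByExpr, robust quasi-likelihood) compared members with all other kept cells, and Odam-positive with Odam-negative members, with Benjamini-Hochberg adjustment over all tested genes. DESeq2 1.42.0 was an alternative. Python 3.11.15 with numpy 2.4.6, scipy 1.17.1, pandas 2.3.3 and matplotlib 3.10.9 gave shares, exact intervals and plots. On simulated counts with 200 genes changed 4-fold, edgeR recovered 96% of them for members against other cells (14400 genes) and 77.5% for the Odam comparison (12710 genes). The simulated counts had a fixed dispersion, no difference between ages and no pairing within a library. These shares therefore do not give the power of the tests on the real sums. The P-values measure the spread between libraries of different ages, with no replicate at an age.

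Genes named were the 6 markers and gate genes, the called genes of each list with the highest levels (up to 5, all for ligands), ligands and mesenchymal receptors above 20 CPM in each library, the 10 largest called differences upward and 5 downward with 50 CPM or more (TMM-scaled) in each library of the higher class, and the 6 largest ratios each way between P15 and 8 weeks with P25 between them. A few others (Shh, Inhba, Krt13, Krt18, Ggt1 and Amtn among them) were named after their values were seen. Ratios with 0 UMIs in a library use a floor of 3 UMIs. Gene positions come from GENCODE vM21. No doublet caller was run, and members with over 20 collagen UMIs per 10000 were left out in an alternative instead. The 2 sums of a library come from the same animals, and deviations from class means correlated within each library (r = 0.26 at P15, 0.595 at P25 and 0.147 at 8 weeks for members and other cells). A low-collagen contrast with mesenchymal cells, an Odam threshold of 20 UMIs and Amelx without its richest cell were added after the data were seen. 1 gene and a cell subset defined with it are not reported here.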

Additional observations from a re-analysis of the deposited data

Results flagged for a closer look

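Ambn, Satb1 and Slc13a5 stood on opposite sides of the other kept cells at different ages. The rule that flagged them used only P15 and 8 weeks, each age being 1 library, so the difference was not tested. Ambn was at 660 CPM in keratin epithelial cells and 136 CPM in other kept cells at P15, and at 2.25 CPM and 80.0 CPM at 8 weeks. Satb1 was at 141 CPM and 20.4 CPM at P15, and at 1.69 CPM and 7.32 CPM at 8 weeks. Slc13a5, a citrate transporter, was at 24.0 CPM and 3.41 CPM at P15, and at 0 CPM and 2.76 CPM at 8 weeks, where the members summed to the fewest UMIs.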

How the results depend on the processing

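The calls against other kept cells, but not the direction of the fold changes of the called genes named, depended on the P25 library. Leaving out a library in turn gave 0 to 1795 higher and 0 to 2560 lower genes, with 0 without P25 (edgeR, smallest adjusted p 0.104) and fewest otherwise without the 8-week library (624 and 900). With the library as a block the counts were 1289 and 2417, and 23 of 202 named genes lost their call and 4 gained it. DESeq2 gave 1592 and 2844, and adjusted p alone 2443 higher genes. Some log2 fold changes turned sign. Leaving out a library in turn took Ambn from -2.19 to 1.70, Slc13a5 from -2.19 to 2.18, Cxcl1 from -1.29 to 0.25, Cxcl2 from -2.65 to 0.0789 and Tgfb2 from -0.27 to 0.22. The block gave -1.12 for Ambn and -0.31 for Slc13a5. Against mesenchymal cells alone, for all members and for those of low collagen, Cxcl2 was at 1.42 and 1.55 and Laptm5 at 0.20 and 0.33, and Tyrobp at 0.14 for all members. In the Odam comparison, DESeq2 gave 14 and 1 and the block 7 and 1, and leaving out a library left no residual degrees of freedom. Shares of members at P15, P25 and 8 weeks were 6.76%, 6.31% and 1.502% on thinned counts and 7.53% and 7.47% at the first ages without high-collagen members. They were 10.1% and 8.80% with 2 Epcam or Trp63 UMIs, and 9.28% at P15 with 20 keratin UMIs. Genes past 4-fold were 147 at 8 weeks and 529 at P15 from 10 CPM, and 66 at P15 without high-collagen members. Unthinned subset shares were 42.5% and 34.0% for Odam, 27.1% and 6.13% for enamel, 4.78%, 31.5% and 31.5% for stratifying and 16.4%, 49.6% and 47.2% for cycling cells. Doubled thresholds gave 11.4% and 16.9% for Odam, 12.0% and 0.649% for enamel, 10.9% at P25 for stratifying, and 2.45% and 13.4% for cycling cells. Without high-collagen members the P15 enamel share was 11.5%. The causes were not tested. The 8-week values rest on 89 cells.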
